A study of Mus musculus with 8 samples.

Results

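Cytosolic ribosomal proteins form the protein part of the large (60S) and small (40S) ribosomal subunits. Their genes were taken as all mouse symbols of the form Rpl, Rps or Rplp followed by a number, together with Rpsa, and 89 genes of a RefSeq gene table fitted this rule. Of these, 83 had a named probe on the array and 81 were well above background on 4 or more arrays, and each gene was represented by its brightest probe. The 81 genes tested were 49 of the large and 32 of the small subunit, among 25088 genes or other transcribed features tested in all. Rpl32l, Rpl6l, Rps12l1, Rps23, Rps3a2 and Rps3a3 had no probe named for them here and were not analysed. Rpl10l was well above background on 0 of 8 arrays and Rpl39l on 2, both Rap1-/-, so neither was tested. All 81 tested genes were well above background on 8 of 8 arrays, so none entered through 1 genotype alone, and 0 had a saturated spot.

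The study profiled 4 Rap1-/- and 4 wild-type (WT) samples of gonadal white fat. They came from female mice of a C57BL6/129SV (90%:10%) background on chow diet at 10 weeks of age. The Rap1-/- mice lacked RAP1 in the whole body from the early embryo on, since the floxed Rap1 allele had been recombined by a Cre recombinase under the EIIa promoter, whose transgene was no longer present. The deletion was therefore not confined to fat. Each of 2 slides held 2 arrays of each genotype, and within a slide WT arrays lay in positions 1 and 2 and Rap1-/- arrays in positions 3 and 4, so position and genotype cannot be told apart. The labels number the samples without saying that each came from a separate animal, and the p-values below measure the spread between these samples.

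Ribosomal proteins are made in step with each other and with ribosomal RNA, because each ribosome holds a single copy of most of them, and growing or secreting cells make them in large amounts. In vertebrates many of their mRNAs start with a C and a run of pyrimidines, the 5′ terminal oligopyrimidine (TOP) tract, through which mTOR signalling controls their translation. In budding yeast Rap1 is an activator of ribosomal protein genes, whereas mammalian RAP1, encoded by Terf2ip, reaches telomeres through the shelterin protein TRF2 and also binds at TTAGGG repeats along chromosome arms. The comparison of Rap1-/- with WT fat therefore asked whether the mouse ribosomal protein genes change when RAP1 is absent.

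TTAGGG was looked for in RefSeq promoter windows (GRCm38.p6, 250 bases before to 50 bases from the transcription start on), which were at hand for 60 of the 81 genes as 72 windows. One or more copies on either strand were in 8 windows of 8 genes (11.1% of the windows), against 10.6% of 32851 windows of all genes. The repeat of 2 TTAGGG units in tandem was in 0 of the 72 windows and in 4 of all windows (0.0122%). The stretches before the start are shown because they are the places in these promoters that carry the letters of the telomeric repeat, written 5′ to 3′ on the strand of the gene with TTAGGG or its reverse complement in capitals. In Rpl13, Rpl22, Rpl6 and Rps18 the motif lay on the strand of the gene, 152, 154, 119 and 104 bases before the start, and in Rpl26, Rpl39 and Rpl41 on the opposite strand, 210, 16 and 28 bases before it.
Rpl13 (chr8:123102186-123102215, plus strand): ggagaaagagttTTAGGGgtttaattcata
Rpl22 (chr4:152325560-152325589, plus strand): gtggtgatttgtTTAGGGaacgtccgtctt
Rpl6 (chr5:121204370-121204399, plus strand): tgcccttacctaTTAGGGtgggggtggggc
Rps18 (chr17:33955752-33955781, minus strand): acaactcctcccTTAGGGggagacggggag
Rpl26 (chr11:68901344-68901373, plus strand): ccggcctaccgtCCCTAAgcaaccctcttc
Rpl39 (chrX:37085221-37085250, minus strand): tcatccatccccCCCTAAgctccgcctcta
Rpl41 (chr10:128549179-128549208, minus strand): cgagcagccccgCCCTAAgggacgacacac
In Rps4x the motif lay 35 bases into the transcript. The median log2 difference between genotypes over these 8 genes was -0.10, with a range from -0.17 to -0.01, against -0.11 over the 52 genes whose windows lacked the motif. The array data hold no binding measurement, and a match of letters is not a binding site.

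Arrays were scaled to the 75th percentile of their gene spots, and all levels below are log2 signals relative to it unless another scaling is named. The targeted gene was read by 2 probes. One Terf2ip probe read 0.06, 0.26, 0.49 and 0.23 on the WT arrays and was well above background on 0 of the 4 Rap1-/- arrays (readings -7.58, -7.43, -7.13 and -7.58). The other read 1.01, 0.84, 0.98 and 1.06 in Rap1-/- fat and -1.49, -1.39, -1.27 and -1.48 in WT fat, a log2 difference of 2.38 (limma with Benjamini-Hochberg adjustment, adjusted p over all genes = 6.66e-05). The 2 probes thus moved in opposite directions, each separated the arrays as labelled, and the place of either relative to the deleted part is not given in the sources used here. Terf2ip was the 1 feature of 25088 that passed an adjusted p of 0.05. The adipocyte markers Adipoq and Plin1 were well above background on all arrays. Of 11 skeletal muscle markers 8 were as well, and their summed signal spread from 2.84 to 10.42 over the Rap1-/- arrays and from 6.34 to 9.22 over the WT arrays (log2).

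No ribosomal protein gene was called. At an adjusted p of 0.05 limma called 0 of the 81, where 0.00399% of all features were called, and their adjusted p-values ran from 0.875 to 0.994. At an unadjusted p of 0.05, 5 of the 81 (6.17%) were below the threshold, all lower in Rap1-/-, against 4.98% of all features in either direction and 3.31% lower. Without WT replicate 4 there were 13 such genes (16.0%, against 6.12% of all features), and without any other single array 1 to 3. With a trended, robust variance there were 16 (19.8%, against 5.36% of all features). The number called stayed at 0 in each of these fits. Under percentile scaling the differences were small. There 79 of the 81 genes had a 95% interval that stayed within 0.5 log2 units (1.41-fold) of no difference. The exceptions were Rplp2, whose interval reached -0.50, and Rpl3l, described below. The median standard error was 0.09 log2 units over the 81 genes, and 0.14 over all features. Intervals under the other scalings are not given, so this bound is shown for percentile scaling only. With scaling to the E1A control spots the differences ran from -0.72 to 0.32.

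The direction was nonetheless much alike over the genes under this scaling. In Rap1-/- the mean was lower for 77 of the 81 (95.1%), where it was lower for 59.9% of all features, and the median log2 difference was -0.11 (1.08-fold lower) against -0.04 over all features, but with quantile normalisation only 30 of the 81 were lower and with E1A scaling only 2. Both subunits had like medians, at -0.11 over 49 large subunit genes (47 lower) and -0.11 over 32 small subunit genes (30 lower). For 15 genes (18.5%) all 4 Rap1-/- arrays lay below all 4 WT arrays, where the groups did not overlap for 3.26% of all features. With median scaling 2 genes had no overlap (2.47%, against 2.18% of all features) and with normexp correction 5 (6.17%, against 2.64%). It was 0 genes with E1A scaling (3.52% of all features), quantile normalisation (2.66%) and the deposited values (2.35%). The 15 genes under percentile scaling included Rpl8, Rpl9, Rpl10a, Rpl11, Rpl13a, Rpl23, Rpl24, Rpl26, Rpl35a, Rpl38, Rps13, Rps24, Rps26 and Rps29. Within slide 1 the median difference was -0.14 and within slide 2 it was -0.08, and 72 genes were lower on both slides. In whole tissue, fewer cells that make a transcript and less of it per cell cannot be told apart.

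**Figure D1:**
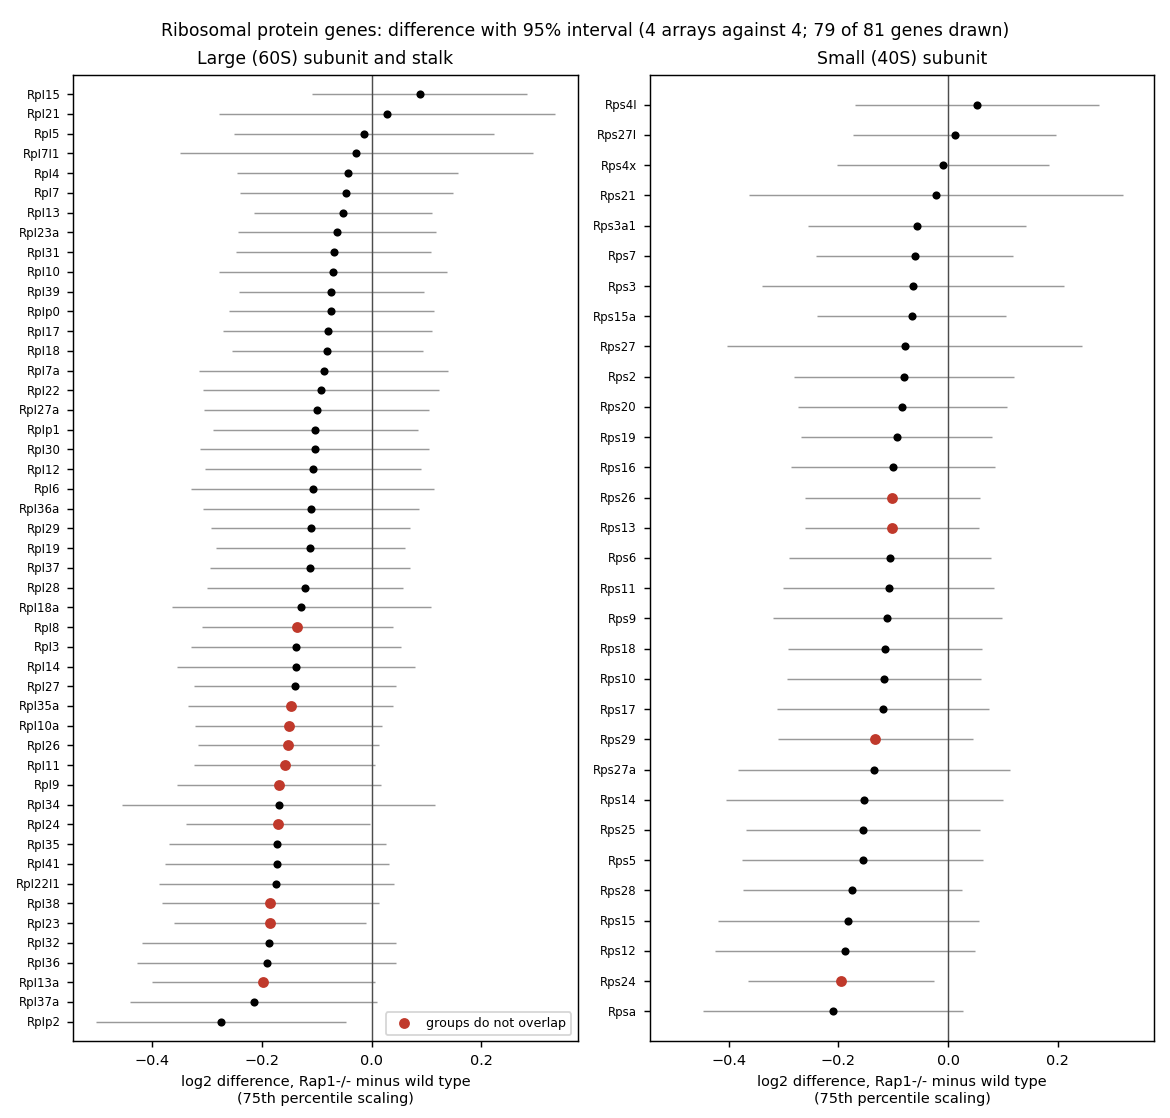
Log2 difference between Rap1-/- and WT fat for 79 of the 81 ribosomal protein genes (horizontal axis; points, limma estimates from 4 arrays against 4; lines, 95% intervals), with large subunit genes on the left and small subunit genes on the right. Under this 75th percentile scaling most points lie to the left of 0 (with E1A scaling 79 of the 81 genes lie to the right), the genes in red have groups that do not overlap, and 0 genes passed an adjusted p of 0.05; Rpl3l, at -0.95, and 1 other gene are not drawn.

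The ribosomal stalk, made by Rplp0 and the acidic proteins Rplp1 and Rplp2, recruits elongation factors to the large subunit. Rplp2 read 8.36, 8.39, 8.32 and 8.30 on the Rap1-/- arrays and 8.64, 8.67, 8.77 and 8.38 on the WT arrays. One WT array lay within the range of the knockout and the other 3 above it, and the log2 difference was -0.27 ± 0.10 (SE, 1.21-fold lower, limma adjusted p = 0.875). Rplp1 read 7.52, 7.57, 7.58 and 7.67 in Rap1-/- fat against 7.66, 7.70, 7.80 and 7.59 in WT fat (-0.10 ± 0.08). Rplp0, which bridges the stalk to the ribosomal RNA, read 8.08, 8.24, 8.08 and 8.16 in Rap1-/- fat against 8.26, 8.31, 8.15 and 8.14 in WT fat (-0.07 ± 0.08). The groups overlapped for both, and whether Rplp2 differed more than its partners was not tested. With E1A scaling the differences of Rplp0, Rplp1 and Rplp2 were 0.16, 0.13 and -0.04. With the deposited values they were 0.13, 0.03 and -0.08.

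Rpl5 and Rpl11 join the 5S ribosomal RNA and, when free, bind MDM2, the ubiquitin ligase of p53. Rpl11 read 8.09, 8.11, 8.10 and 8.21 in Rap1-/- fat and 8.25, 8.33, 8.30 and 8.27 in WT fat, so that the groups did not overlap (-0.16 ± 0.07, limma adjusted p = 0.875). With E1A scaling the difference of Rpl11 was 0.08, and with the deposited values 0.01. Rpl5 read 4.96, 4.88, 4.79 and 4.70 in Rap1-/- fat and 4.78, 5.07, 4.79 and 4.75 in WT fat, with overlapping groups and a difference of -0.01 ± 0.10, whose 95% interval ran from -0.25 to 0.22.

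Other large subunit genes with the smallest p-values were Rpl23, Rpl24 and Rpl13a. Rpl23, another protein that can bind MDM2, read 7.71, 7.63, 7.67 and 7.62 in Rap1-/- fat and 7.85, 7.94, 7.84 and 7.74 in WT fat (-0.19 ± 0.08, 95% interval -0.36 to -0.01). Rpl24, a protein at the interface with the small subunit, read 7.43, 7.51, 7.56 and 7.48 in Rap1-/- fat and 7.68, 7.73, 7.63 and 7.62 in WT fat (-0.17 ± 0.07, -0.34 to -0.0029). Rpl13a, which also acts in a complex that silences translation of inflammatory mRNAs, read 6.22, 6.23, 6.20 and 6.05 in Rap1-/- fat and 6.34, 6.44, 6.47 and 6.24 in WT fat (-0.20 ± 0.09, -0.40 to 0.01). In all 3 genes the lowest WT array, replicate 4, lay just above the highest Rap1-/- array. Their limma adjusted p was 0.875 each. With E1A scaling the differences of Rpl23, Rpl24 and Rpl13a were 0.05, 0.07 and 0.04. With the deposited values they were -0.02, -0.02 and -0.09.

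Rps24, a small subunit protein needed for maturation of the 18S ribosomal RNA, was among the genes with the smallest p-values. It read 7.84, 7.82, 7.83 and 7.73 on the Rap1-/- arrays and 7.99, 8.07, 7.9999 and 7.94 on the WT arrays (-0.20 ± 0.07, 95% interval -0.36 to -0.03, limma adjusted p = 0.875). All 4 knockout arrays were below the 4 WT arrays, while with E1A scaling the difference was 0.04. Rps6, the substrate of the S6 kinases downstream of mTOR, read 6.72, 6.67, 6.72 and 6.72 in Rap1-/- fat and 6.82, 6.95, 6.76 and 6.72 in WT fat, and WT replicate 4 lay among the Rap1-/- arrays (-0.11 ± 0.08). Rpsa, which also serves as a laminin receptor, read 7.69, 7.96, 7.84 and 8.004 in Rap1-/- fat and 8.06, 7.94, 8.24 and 8.09 in WT fat, with overlapping groups (-0.21 ± 0.10). Neither Rps6 nor Rpsa had an interval that left out 0.

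The 4 genes with a higher mean in Rap1-/- were close to no difference under percentile scaling. Rpl15 read 6.25, 6.08, 6.20 and 6.12 in Rap1-/- fat and 6.08, 6.20, 5.95 and 6.07 in WT fat (0.09 ± 0.09, limma adjusted p = 0.899), Rpl21 differed by 0.03 ± 0.13, and the paralogs Rps4l and Rps27l by 0.05 ± 0.10 and 0.01 ± 0.08. The groups overlapped for all 4. Rpl15 and Rpl21 each had a dimmer kept probe that was lower in Rap1-/-, at -0.12 and -0.17. With E1A scaling Rpl15, Rpl21, Rps4l and Rps27l differed by 0.32, 0.26, 0.29 and 0.25. With the deposited values they differed by 0.17, 0.03, 0.05 and 0.13. Quantile normalisation put Rpl15 at 0.20, and normexp correction put Rpl21 at -0.04.

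Paralogs can stand in for a core ribosomal protein in some tissues, and the array tested 5 of them. Rpl22l1 read 5.21, 5.35, 5.32 and 5.16 in Rap1-/- fat and 5.57, 5.41, 5.27 and 5.48 in WT fat (-0.17 ± 0.09), and its core partner Rpl22 6.59, 6.50, 6.48 and 6.57 in Rap1-/- fat and 6.61, 6.84, 6.56 and 6.49 in WT fat (-0.09 ± 0.09). Both were lower on average and both had overlapping groups. Rps27l, a p53 target, differed by 0.01 ± 0.08 and Rps27 by -0.08 ± 0.14, while Rps4l, listed by RefSeq as a transcribed pseudogene, differed by 0.05 ± 0.10 and Rps4x by -0.01 ± 0.08. Rpl7l1, a nucleolar relative of Rpl7, read -1.05, -0.84, -1.05 and -0.63 in Rap1-/- fat and -0.60, -1.10, -0.90 and -0.86 in WT fat (-0.03 ± 0.14), and Rpl7 differed by -0.05 ± 0.08. In each of these 4 pairs the difference of either gene had a 95% interval that included 0, and the difference between paralog and partner was not tested. Ribosomal protein genes have many processed pseudogenes of near-identical sequence, whose transcripts a probe may also bind, which was not tested.

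Rpl3l replaces Rpl3 in the ribosomes of skeletal and heart muscle, and it had by far the widest spread of the 81 genes. It read -4.54, 1.74, 0.84 and -4.90 on Rap1-/- replicates 1 to 4 and 0.25, -1.53, -2.09 and 0.33 on WT replicates 1 to 4. Rap1-/- replicates 1 and 4 were the lowest of the 8 arrays and Rap1-/- replicates 2 and 3 the highest, so that the WT arrays lay between. The log2 difference was -0.95 ± 1.58 (SE, 95% interval -4.59 to 2.68, limma adjusted p = 0.938). Its size depended on the processing, at -0.91, -0.89 and -0.72 with quantile, median and E1A scaling. With normexp correction it was only -0.19, and with the deposited values -0.09. The muscle creatine kinase Ckm ordered the Rap1-/- arrays likewise, at -3.60, 4.28, 3.07 and -5.74, and read 3.22, 0.97, 0.04 and 2.92 in WT. Acta1, skeletal muscle actin, read 2.35, 7.14, 6.04 and 1.82 in Rap1-/- fat and 5.83, 4.20, 2.99 and 5.64 in WT fat. Each of the 11 muscle markers was below its own mean on Rap1-/- replicates 1 and 4 and above it on Rap1-/- replicates 2 and 3. The core gene Rpl3 spread far less, at 6.13, 6.15, 6.35 and 6.24 in Rap1-/- fat and 6.40, 6.33, 6.41 and 6.29 in WT fat (-0.14 ± 0.08). The part of muscle RNA in the values of Rpl3l was not tested.

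**Figure D2:**
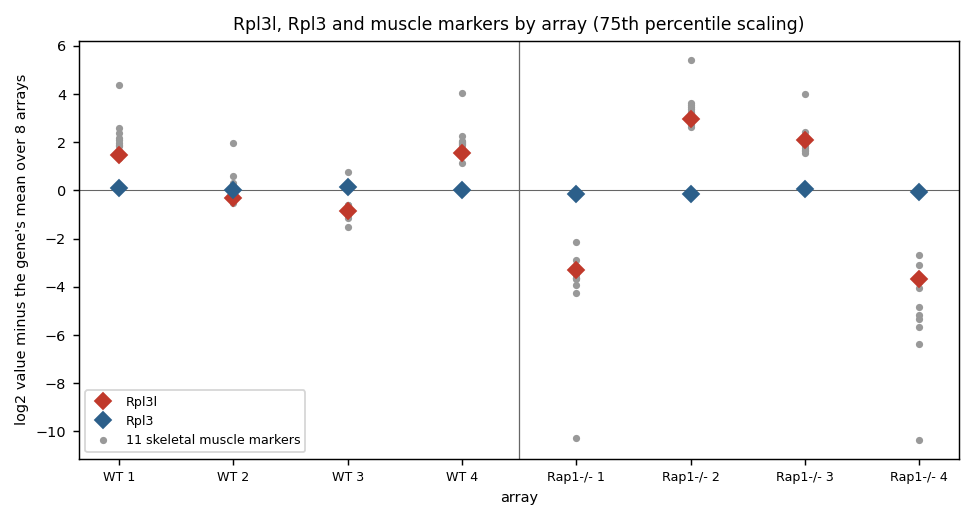
Log2 signal of Rpl3l, Rpl3 and 11 skeletal muscle markers on each array, as deviation from the gene's own mean over the 8 arrays (vertical axis; horizontal axis, arrays by genotype and replicate number). Rpl3l lies at -3.30 and -3.66 on Rap1-/- replicates 1 and 4 and at 2.97 and 2.08 on replicates 2 and 3, where the muscle markers lie low and high too, while Rpl3 stays near 0 throughout.

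Aside from Rpl3l, the widest spread was in Rps21 and Rps27, small subunit proteins. Rps21 read 4.42, 4.64, 4.32 and 4.32 in Rap1-/- fat and 4.58, 4.64, 4.52 and 4.05 in WT fat (-0.02 ± 0.15), and Rps27 7.63, 7.33, 7.59 and 7.27 in Rap1-/- fat and 7.48, 7.77, 7.64 and 7.24 in WT fat. WT replicate 4 was the lowest array for both. Rps14, Rpl37a and Rplp2 had the brightest probes. Rps14 read 8.67, 8.57, 8.74 and 8.64 in Rap1-/- fat and 8.86, 8.96, 8.89 and 8.53 in WT fat (-0.15 ± 0.11), with WT replicate 4 below every knockout array. Rpl37a read 8.38, 8.27, 8.30 and 8.23 and 8.43, 8.63, 8.65 and 8.33 in the same order (-0.21 ± 0.10), with WT replicate 4 within the range of the knockout.

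Other probes of the same genes gave a second reading. For 51 genes more than 1 probe was well above background, 164 probes in all. In 40 of these genes every probe was lower in Rap1-/-, in 11 the probes went both ways, and in 0 was every probe higher. The 83 probes other than the brightest had a median difference of -0.08, 74 of them lower. Over all probes 0 of the 164 passed an adjusted p of 0.05 (limma). An unadjusted p under 0.05 was found for 5 of them (limma), and the share over all probes is not given here. Rps15a had the widest disagreement. Its brightest probe differed by -0.07 and another by -0.05, while a probe well above background on only 5 arrays differed by 0.52 ± 0.21 (SE). For Rpl23 the probes other than the brightest differed by -0.08 and 0.03.

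The shift seen across the genes depended on how the arrays were scaled. With each array's median in place of its 75th percentile the median difference over the 81 genes was -0.05, with 69 genes lower and 2 without overlap (2.47%, against 2.18% of all features). With quantile normalisation, which gives all arrays the same distribution of signals, it was 0.02, with 30 genes lower and 51 higher, and 0 genes had groups that did not overlap. The deposited values, which match normexp background correction followed by quantile normalisation, gave 0.01 with 31 lower and 50 higher. Scaling to the E1A control spots, which are made to read a spike-in RNA, gave 0.13 with 79 of 81 genes higher in Rap1-/-. It also moved the median of all features by 0.24 log2 units, to 0.20. Under E1A scaling the median of the genes relative to their own means was -0.40 on WT replicate 3. It was -0.02, 0.27 and -0.09 on WT replicates 1, 2 and 4, and 0.20, 0.13, -0.05 and -0.03 on the Rap1-/- arrays. E1A scaling was not run without WT replicate 3. Relative to the median of all features the ribosomal protein genes were at -0.07 with percentile, median and E1A scaling, at -0.02 with normexp correction and percentile scaling, at 0.02 with quantile normalisation and at 0.01 with the deposited values. Under these 6 scalings 2 genes were lower in all (Rpl3l and Rplp2) and 3 higher in all (Rpl15, Rps27l and Rps4l), and limma called 0 of 81 in each.

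**Figure D3:**
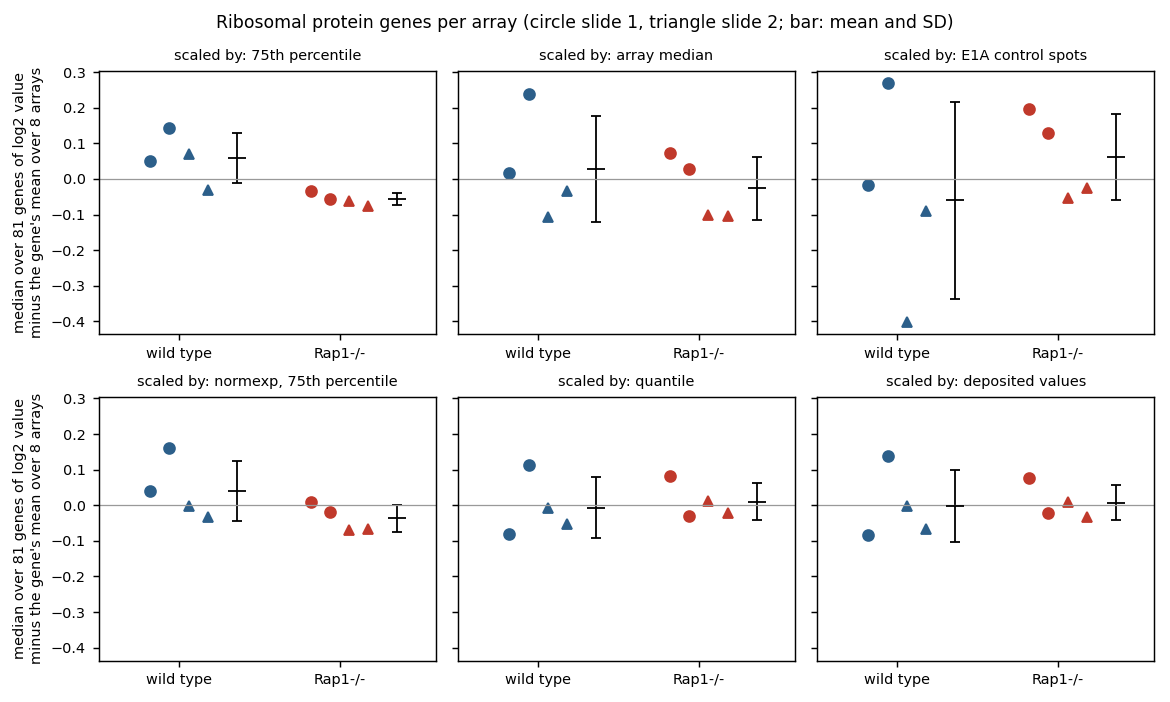
Median over the 81 ribosomal protein genes of the log2 signal minus each gene's mean over the 8 arrays (vertical axis), per array, under 6 scalings (panels; circles, slide 1; triangles, slide 2; bars, mean ± SD, n = 4 arrays). With 75th percentile scaling the Rap1-/- arrays lie between -0.07 and -0.03 and 3 of the 4 WT arrays above 0. With quantile normalisation and the deposited values the groups overlap. With E1A scaling they overlap too, the Rap1-/- mean is the higher one, and WT replicate 3, at -0.40, is the lowest array.

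Array by array, the median of the genes relative to their own means was -0.03, -0.06, -0.06 and -0.07 in Rap1-/- and 0.05, 0.14, 0.07 and -0.03 in WT under 75th percentile scaling. The Rap1-/- arrays were close to each other (SD 0.02, n = 4) and the WT arrays less so (SD 0.07, n = 4). WT replicate 4 lay only just above the highest Rap1-/- array. The E1A spots, relative to the 75th percentile, read 0.90 to 1.12 on the Rap1-/- arrays and 1.01 to 1.61 on the WT arrays, with WT replicate 3 the highest. The summed linear signal of the 81 probes was 4.96% ± 0.12 of that of all features in Rap1-/- fat and 5.06% ± 0.33 in WT fat (SD, n = 4 arrays each). The ranges of this share, 4.86% to 5.12% and 4.78% to 5.48%, overlapped. The share differed by -0.10 percentage points between the genotypes and by 0.04 without WT replicate 2, and it is a share of probe signal, not of RNA molecules.

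The genes lay among the brightest probes, with 77 of the 81 in the brightest 10% of features and 31 in the brightest 1%. Over the whole brightest 10% the median difference was -0.09 and 79.5% of features were lower in Rap1-/-, while in the bin from 50% to 60% these values were -0.01 and 52.1%. Among the 220 features of the brightest 1% that were not ribosomal protein genes, the median difference was -0.17 and 210 were lower. With quantile normalisation that median was 0.0019. Groups did not overlap for 6.25% of the features of the brightest 10% outside the 81 genes. The lower values of the ribosomal protein genes under percentile scaling thus stood beside lower values of other bright probes, and the part of probe brightness in them was not tested.

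**Figure D4:**
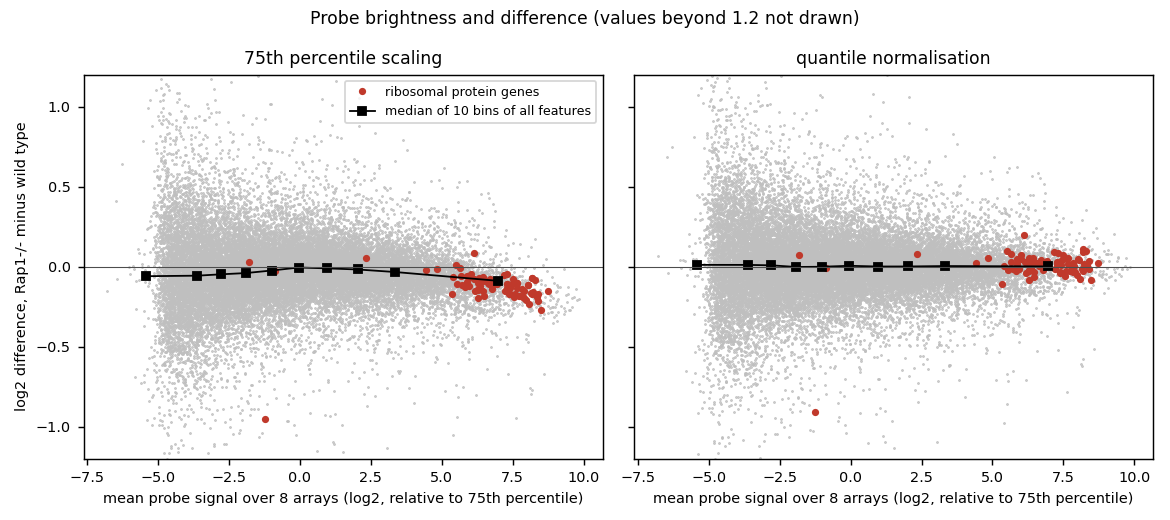
Log2 difference, Rap1-/- minus WT (vertical axis), against mean probe signal over the 8 arrays (horizontal axis, log2 relative to the 75th percentile) for all 25088 features (grey) and the 81 ribosomal protein genes (red), under 75th percentile scaling (left) and quantile normalisation (right). The medians of 10 bins of features by brightness (black squares) fall to -0.09 in the brightest bin on the left and stay near 0 on the right, and most red points lie around them.

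Genes that work with the ribosome were taken as 6 lists. Among 4 further ribosomal components (Fau, Rack1 and Rpl36al among them), 4 of 4 were lower, with a median of -0.19, and 0 were called. Rpl36al, a near copy of Rpl36a, read 4.74, 5.02, 4.82 and 4.92 in Rap1-/- fat and 5.15, 5.06, 5.08 and 5.08 in WT fat, without overlap (-0.22 ± 0.09, limma adjusted p = 0.875). Fau, a ubiquitin-like fusion that yields the small subunit protein eS30, differed by -0.18 ± 0.10. Among 10 elongation factors and other genes with TOP mRNAs, 8 were lower and 2 higher (median -0.09), led by Hnrnpa1, an RNA-binding protein, at -0.18 ± 0.10 and Tpt1, a highly expressed TOP mRNA, at -0.14 ± 0.08. With quantile normalisation the medians of these 2 lists were 0.01 and 0.02, and with E1A scaling 0.04 and 0.15.

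Initiation factors were nearer to all features, with 21 of 33 lower and a median of -0.04. Eif3k, a subunit of eIF3, differed by -0.14 ± 0.07 without overlap, and Eif4g2, a relative of the scaffold eIF4G, by 0.17 ± 0.10. Of 19 genes for RNA polymerase I and its factors, which make the ribosomal RNA, 12 were lower (median -0.04). Polr2l, a subunit shared by the nuclear RNA polymerases, read 6.15, 6.37, 6.27 and 6.46 in Rap1-/- fat and 6.70, 6.51, 6.59 and 6.54 in WT fat, without overlap (-0.27 ± 0.09, limma adjusted p = 0.875). Taf1b, a subunit of the polymerase I selectivity factor, differed by -0.20 ± 0.12.

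Of 91 ribosome biogenesis genes 48 were lower and 43 higher (median -0.0040). Utp20, a component of the small subunit processome, read -1.17, -1.18, -0.89 and -1.12 in Rap1-/- fat and -1.44, -1.43, -1.44 and -1.32 in WT fat, higher in the knockout without overlap (0.32 ± 0.09), and Tsr1, which acts late in small subunit maturation, differed by 0.30 ± 0.11. Neither was called (limma adjusted p = 0.875 for each). Of 32 genes that control ribosome production, such as MYC and mTOR pathway members, 13 were lower and 19 higher (median 0.02). Mycn differed by 1.33 ± 0.56 from a dim probe that was well above background on 3 of 4 WT arrays. It read -3.22, -4.29, -3.38 and -3.51 in Rap1-/- fat and -4.14, -4.32, -6.74 and -4.51 in WT fat. The groups overlapped, and WT replicate 3 lay far below the other arrays. Mxd1, a MYC antagonist, differed by -0.37 ± 0.18. Limma called 0 genes of the 6 lists, whose smallest adjusted p was 0.875. With E1A scaling all 6 list medians were above 0, between 0.04 and 0.26, and with median scaling those of initiation and polymerase I were 0.02 each.

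Of the cell type markers 0 were called, and their levels are given here beside those of the ribosomal protein genes. All 11 skeletal muscle markers had a lower mean in Rap1-/-, with a median of -1.54 (-1.30 with E1A scaling and -1.09 with the deposited values) and the wide, overlapping ranges given above. All 8 mesothelial markers were higher in Rap1-/-, with a median of 0.63, and their summed signal was 5.27 to 5.58 in Rap1-/- and 4.08 to 5.46 in WT (log2). Of 8 adipocyte markers 7 were lower (median -0.24, summed signal 11.53 to 11.66 and 11.64 to 11.97), but their median was -0.0025 with E1A scaling, -0.025 with quantile normalisation and -0.026 in the deposited values. All 5 red cell markers tested were lower (median -0.35, but -0.18 with the deposited values and -0.12 with E1A scaling, 8.79 to 9.61 and 9.27 to 9.76), 8 of 9 fibroblast markers were higher (median 0.25, 9.22 to 9.33 and 8.78 to 9.39) and 8 of 8 macrophage markers were higher (median 0.21, 6.01 to 6.44 and 5.83 to 6.18). Of the lymphocyte markers 6 of 9 were higher (median 0.05) and of the endothelial markers 6 of 8 lower (median -0.04, but 0.20 with E1A scaling). The part of cell makeup in the ribosomal protein values was not tested.

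The promoter windows were also read for features that ribosomal protein genes are known to share. The letters CCGGAAG, the core of ETS-type sites, were on either strand of 36.1% of the 72 windows and of 8.86% of all windows. AAGATGGC, the core read by YY1, was in 11.1% against 2.75%, and TATAAA in 9.72% against 13.6%; the end of CCGGAAG and the start of AAGATGGC can share bases. A transcript start of C followed by at least 4 pyrimidines was in 18.1% of the windows against 2.51% of all. The stretches of 15 bases on each side of the annotated start are shown for 6 of these 13 genes, with the pyrimidine tract from the first transcribed base on in capitals.
Rplp2 (chr7:141447636-141447665, plus strand): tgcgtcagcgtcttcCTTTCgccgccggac
Rps6 (chr4:86857353-86857382, minus strand): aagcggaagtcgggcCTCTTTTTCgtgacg
Rpl15 (chr14:18270972-18271001, minus strand): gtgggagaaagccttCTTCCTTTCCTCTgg
Rpl35 (chr2:39005117-39005146, minus strand): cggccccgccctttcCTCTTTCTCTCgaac
Rpl38 (chr11:114668565-114668594, plus strand): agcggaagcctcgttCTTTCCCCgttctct
Rps18 (chr17:33955651-33955680, minus strand): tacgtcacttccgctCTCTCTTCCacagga
The differences between genotypes are given by these letters as a description, with no test. The 25 genes with CCGGAAG and the 35 without it both had a median log2 difference of -0.11 under percentile scaling. The median was -0.12 over the 13 genes with a pyrimidine start at the annotated first base and -0.11 over the 47 without one there. Those 47 may still have a TOP tract, since only the annotated base was read. Rpl13a, Rpl22l1 and Rps24, for example, had a pyrimidine run beside it. The median was -0.09 over the 6 genes with AAGATGGC and -0.11 over the 54 without it. For TATAAA it was -0.09 over the 7 genes with it and -0.11 over the 53 without it. Rplp2, with the most negative difference after Rpl3l, and Rpl15, with the highest, both had a pyrimidine start and CCGGAAG.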

How the data were processed

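The authors extracted total RNA with Trizol, labelled it with Cy3 and hybridised each of the 8 samples to a one-colour Agilent mouse array. The deposited scanner files came from Feature Extraction 10.7.3.1 and an array design built on mm9. Their processed signals, median signals and local backgrounds are linear intensities that the authors had not scaled between arrays, and other columns hold flags of 0 or 1. Values in the deposited table are log2. The submitters name limma for it, without settings, and a recomputation by normexp (offset 50) and then quantile normalisation matched it on every array.

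Processed signals of spots free of outlier flags were averaged per probe after taking log2 and subtracting the array's 75th percentile over gene spots. That percentile was between 302.1 and 496.9 intensity units, 59.7% to 65.2% of gene spots per array were well above background, and the number of arrays limits the precision. RefSeq accessions named 26056 of 55681 gene probes (46.8%). Probes well above background on at least 4 arrays were kept, and the brightest one stood for its gene. Genotypes came from the labels and were compared by lmFit and eBayes of limma 3.58.1 in R 4.3.3. Adjusted p-values (Benjamini-Hochberg, over all 25088 features) were held to 0.05. The procedure was also run on simulated data, whose outcome is not given here. These data had independent noise for each feature and no shift shared by an array, so they cannot judge the choice of scaling. Alternatives changed the background correction, scaling, filter, probe rule, blocking and variance model, or left out an array.

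The genes and lists were chosen with earlier results of these data known. Named were the stalk genes, Rpsa, Rps6, Rpl5 and Rpl11, paralogs with their partners, in each direction the first 6 genes by p (4 where fewer were higher), the 3 brightest, dimmest and most variable, and up to 2 genes per related list by p. The genes listed as without overlap, those with disagreeing probes and those whose promoter stretches are shown were picked with their values in view. Some items named by this rule are not reported here. Plots were made in Python 3.11.15 with matplotlib 3.10.9.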

Additional observations from a re-analysis of the deposited data

Results flagged for a closer look

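In 4 of the 58 groups of 4 arrays examined (27 named genes, their median per array and their share of signal, in each genotype) the highest or lowest array stood apart from the other 3, with a gap above Dixon's 95% limit for 4 values; chance flags about 1 in 20 groups. Rps6 read 6.67 on Rap1-/- replicate 2, below the other knockout arrays at 6.72, 6.72 and 6.72. Rpl5 read 5.07 on WT replicate 2, above the other WT arrays at 4.78, 4.79 and 4.75. Rpl11 read 8.21 on Rap1-/- replicate 4 and 8.09, 8.11 and 8.10 on the others. Rps4l read 2.38 on WT replicate 1 and 2.30, 2.29 and 2.29 on the others. Over all 81 genes, 8 of 162 groups had such an array.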

How the results depend on the processing

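Under all 21 alternatives 0 of the 81 genes were called by limma at an adjusted p of 0.05. Over all features 2 were called with normexp correction, with the deposited values and with a trended, robust variance, 0 within slide 1 and 0 within slide 2 (limma, with 4.51% and 3.52% of features at an unadjusted p under 0.05), and 1 with each array left out. Of the 81 genes, 2 (2.47%) had an unadjusted p under 0.05 with normexp correction (limma), against 4.97% of all features. With quantile normalisation, median scaling, E1A scaling and the deposited values there were 0, against 4.64%, 3.85%, 6.48% and 4.54% of all features. Within either slide there were also 0. There were 3 without a filter on dim probes and 3 with the mean of probes. A trended, robust variance gave 16 (19.8%, against 5.36% of all features), and leaving out each array gave 1 to 13. Shares of all features are not given for the filter, the mean of probes, the replicate block or arrays left out other than WT replicate 4. The labels do not say whether same-numbered arrays were paired. Their deviations from the genotype means correlated at -0.13 to -0.22, which cannot settle this, because arrays with different numbers were not compared. With the replicate block 2 genes were left at an unadjusted p under 0.05 and 0 were called (limma).

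The median difference of the 81 genes was 0.018 with quantile normalisation, -0.051 with median scaling, 0.126 with E1A scaling and 0.012 with the deposited table, and the number lower was 30 with quantile normalisation, 2 with E1A scaling and 31 with the deposited values; with each array left out they were -0.15 to -0.10 and 72 to 79. The medians of the related lists moved beyond their spread between replicates as follows. With E1A scaling they were 0.042 (other ribosomal components), 0.15 (elongation and TOP genes), 0.19 (initiation), 0.20 (polymerase I), 0.23 (biogenesis) and 0.26 (control). With median scaling they were -0.134, -0.031, 0.018, 0.021, 0.056 and 0.079 in the same order. With quantile normalisation the first 3 lists were at 0.0057, 0.017 and 0.018, with the deposited values the first pair at -0.011 and 0.034, and within slide 2 the elongation and TOP genes at -0.0021. Of the 27 named genes, 26 moved by more than their spread between replicates with E1A scaling, 19 after quantile normalisation and 16 for the deposited table, and none became called. The cause of these moves was not tested. Precision is limited by 4 arrays a genotype. The median standard error, 0.09 log2 units, holds for a single gene and does not measure the precision of the median difference over the 81 genes, -0.11. Under percentile scaling the array medians of these genes averaged -0.057 for the knockout, with a standard deviation of 0.017. For WT arrays the average was 0.059, with a standard deviation of 0.071. The choice of scaling moved the median difference by more than its size, as far as 0.126 with E1A scaling.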
